A study of Homo sapiens with 9 samples.

Results

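The heterogeneous nuclear ribonucleoproteins (hnRNPs) are RNA-binding proteins that coat nascent transcripts as RNA polymerase II (RNAPII) makes them, and they act in splicing, 3′ end formation, export and decay of RNA. The genes described here are HNRNPA1, HNRNPA2B1, HNRNPC, HNRNPD, HNRNPF, HNRNPH1, HNRNPK, HNRNPL, HNRNPM and HNRNPU, 10 of 19820 protein-coding genes in the annotation, chosen by name as well-known members of the family. They are expressed in nearly all cell types, and many of the proteins bind their own transcripts and so adjust their own amount. RNAPII on such genes is found both near the transcription start site (TSS), where initiating and paused polymerase gathers, and across the transcribed body, where elongating polymerase is spread out.

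RNAPII occupancy was measured by chromatin immunoprecipitation and sequencing (ChIP-seq) in the human embryonic kidney line HEK293 with an antibody to the polymerase, and the authors called peaks, which are stretches with more sequence tags than a non-specific IgG background. In 3 libraries the cells carried a lentiviral short hairpin RNA, which was either a control shRNA, RECQL5 shRNA 5 or RECQL5 shRNA 7. RECQL5 is a DNA helicase that binds RNAPII. In 2 other libraries T-REx cells, a HEK293 derivative carrying an integrated plasmid with the RECQL5 coding sequence under a doxycycline-controlled promoter, were given 0 or 1 ng/ml doxycycline. The question of the study was how lowering or raising RECQL5 alters where RNAPII lies. The 4 IgG libraries are represented only through the peak calls.

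There was 1 library per group, so no difference below has a replicate check and no test between groups was possible. The lists held 5287 peaks with 842310 tags (control shRNA), 23698 with 3778665 (shRNA5), 32124 with 6698771 (shRNA7), 47060 with 1449163 (no doxycycline) and 33900 with 1539844 (doxycycline). Tags were not scaled to library size, so each fold in tags is set beside the median of all genes, and the study describes similar numbers of reads for the libraries it compared. Lists were compared only within the hairpin arm or within the doxycycline arm. Both hairpin comparisons use the same control list. The hairpin lists used here, the control one above all, hold fewer peaks than the methods of the study describe, so a peak missing from them is a statement about these lists only. Among the markers of the line, VIM, KRT8 and KRT18 had a peak at the TSS in all 5 lists, while PAX2 had one only in the no doxycycline list. PTPRC, CDH5 and ALB, which mark blood, endothelial and liver cells, had none in any list.

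Peaks on the 10 genes numbered 23 in the control shRNA list, 33 with shRNA5, 17 with shRNA7, 78 without doxycycline and 48 with it. A peak within 500 bp of an annotated TSS is called a TSS peak, and any other peak that touches the gene is called a body peak. TSS peaks were found on 8 of 10 genes with the control shRNA, against 17.3% of all protein-coding genes. With shRNA5 all 10 genes had one (44.5% of all genes), and with shRNA7 it was 9 of 10 (52.8%). All 10 had one both without doxycycline (57.0%) and with it (48.2%). The genes without a TSS peak, HNRNPH1 and HNRNPL with the control shRNA and HNRNPC with shRNA7, had no peak of any kind in that list.

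The hnRNP genes differed from most genes in how much of their length lay under peaks. Among members with a TSS peak, the median share of the gene span under peaks was 73.5% with the control shRNA, 96.5% with shRNA5, 100% with shRNA7, 89.0% without doxycycline and 95.0% with it. In protein-coding genes of the same length range with a TSS peak, the medians were 6.40%, 14.5%, 24.2%, 7.14% and 5.34%. At least 80% of the span was covered in 3 of 8 members with the control shRNA (3.95% of those genes), 8 of 10 with shRNA5 (7.34%) and 8 of 9 with shRNA7 (13.9%). Without doxycycline it was 6 of 10 members (2.99%), and with doxycycline 8 of 10 (3.19%). This difference from other genes is a description without a test.

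**Figure D1:**
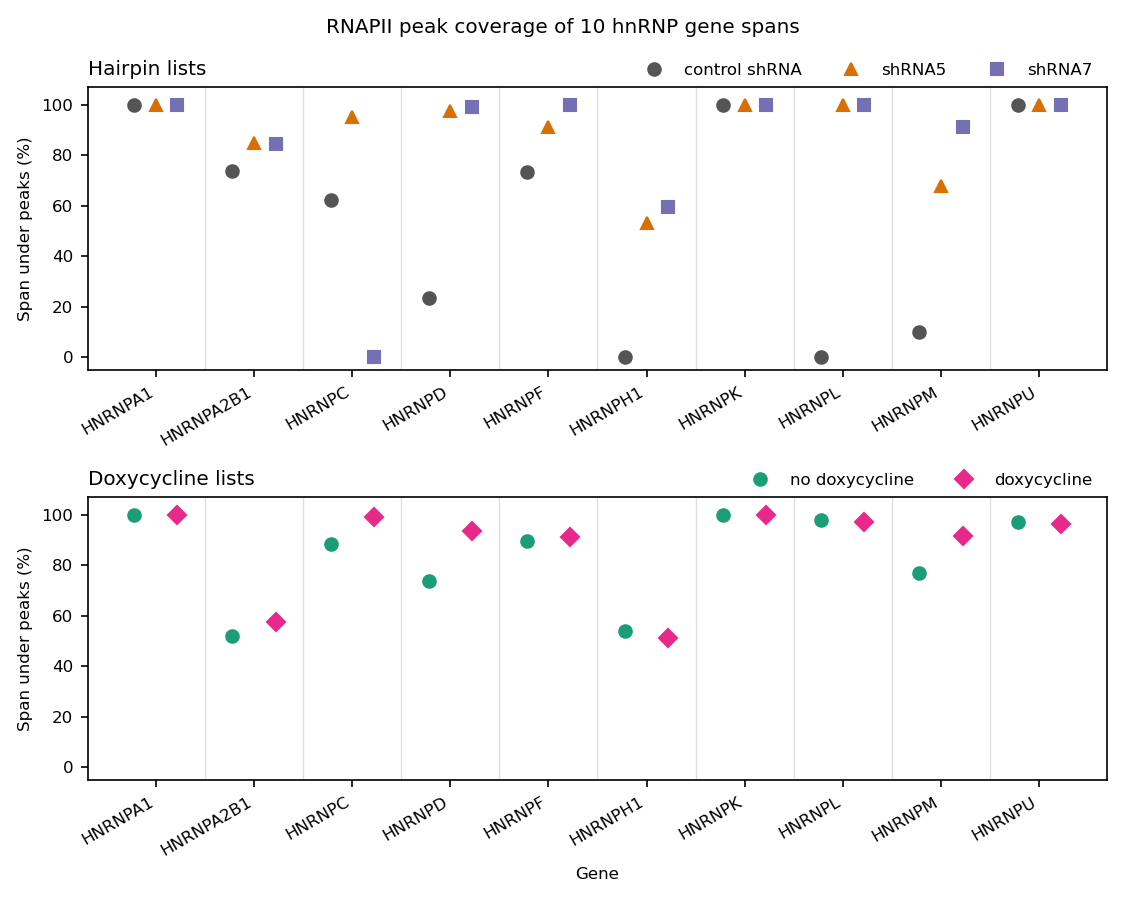
Share of each gene span (%, vertical axis) lying under RNAPII peaks for the 10 genes (horizontal axis), with 1 point per library, hairpin lists above and doxycycline lists below. HNRNPA1, HNRNPK and HNRNPU sit at or near 100% throughout, whereas HNRNPC is at 0% with shRNA7 and HNRNPH1 and HNRNPL are at 0% with the control shRNA.

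The bases just upstream of the start of the canonical transcript are shown for 4 genes. Each stretch lay under a TSS peak in at least 4 of 5 lists and holds a CCAAT box. Sequences were read from GRCh37 and run 5′ to 3′ on the coding strand within the 250 bases before that start, leaving out bases annotated as untranslated region. The HNRNPK and HNRNPL stretches lie inside the gene span, as the longest transcript starts 389 and 2352 bp upstream of the canonical start. A summit, the point of most tags, lay within 200 bp of the canonical start in 4 lists for HNRNPC. It did so in 2 lists for HNRNPL, 2 for HNRNPU and 0 for HNRNPK. Capitals mark matches on either strand to 5 motifs. These were the CCAAT box, which was searched by those letters, the GC box with the letters GGGCGG, the TATA box with TATAAA, the core of sites for ETS factors with CCGGAA, and the E-box, a site for basic helix-loop-helix factors, with CACGTG. Matches to different motifs may overlap.
HNRNPC, minus strand, chr14:21737654-21737851: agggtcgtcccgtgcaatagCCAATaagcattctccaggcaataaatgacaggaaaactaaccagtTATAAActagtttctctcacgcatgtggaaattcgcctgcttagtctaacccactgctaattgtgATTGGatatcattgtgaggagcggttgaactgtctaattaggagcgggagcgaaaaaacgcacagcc
HNRNPK, minus strand, chr9:86595198-86595378: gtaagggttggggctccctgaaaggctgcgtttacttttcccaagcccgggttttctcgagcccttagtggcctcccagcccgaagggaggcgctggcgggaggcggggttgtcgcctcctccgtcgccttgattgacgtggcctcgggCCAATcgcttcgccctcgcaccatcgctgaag
HNRNPL, minus strand, chr19:39340627-39340876: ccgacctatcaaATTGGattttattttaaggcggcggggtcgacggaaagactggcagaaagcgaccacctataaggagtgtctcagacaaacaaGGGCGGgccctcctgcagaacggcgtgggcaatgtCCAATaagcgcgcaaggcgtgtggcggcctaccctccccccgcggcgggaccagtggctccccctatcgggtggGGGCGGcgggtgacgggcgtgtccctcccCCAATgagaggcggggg
HNRNPU, minus strand, chr1:245027863-245028095: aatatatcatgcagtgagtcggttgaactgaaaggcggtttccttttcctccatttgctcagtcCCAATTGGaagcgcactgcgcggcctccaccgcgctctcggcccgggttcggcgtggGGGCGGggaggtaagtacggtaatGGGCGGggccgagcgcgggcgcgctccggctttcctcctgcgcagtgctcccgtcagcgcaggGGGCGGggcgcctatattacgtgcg

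Over the whole 250 bases, the CCAAT box was present in 6 of 10 members (HNRNPA1, HNRNPA2B1, HNRNPC, HNRNPK, HNRNPL and HNRNPU) and in 34.2% of 19820 promoters. The GC box was present in 7 of 10 (58.9% of promoters), and the TATA box in 2, HNRNPC and HNRNPD (9.34%). The E-box was found in HNRNPD and HNRNPM (7.84%) and the ETS core in HNRNPD (19.2%). The GC content of the 10 windows ran from 48.4% in HNRNPC to 72.8% in HNRNPF, around a median of 63.2% over all promoters. These matches describe the sequence and say nothing of which factor was bound.

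HNRNPA1, HNRNPA2B1 and HNRNPC encode the core proteins of the hnRNP particle. HNRNPA1 (ENSG00000135486, chromosome 12, 54673977 to 54680872, plus strand), whose product represses exon inclusion, was under 1 peak in every list. The peak was 11389 bp long with the control shRNA, 11840 bp with shRNA5, 22904 bp with shRNA7, 11110 bp without doxycycline and 10702 bp with it, and the gene itself is 6896 bp. Each peak also touched the TSS of the neighbouring CBX5, which encodes a heterochromatin protein, so tags of the 2 genes cannot be told apart. The tag density of the peak was 130 tags per kb with the control shRNA, 181 with shRNA5 and 156 with shRNA7. It was 115 without doxycycline and 134 with it. These densities were higher than those of 98.1% or more of the genes with a TSS peak in the same list. The summit, where tags piled highest, lay 20 to 127 bp downstream of the canonical start in all 5 lists.

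HNRNPA2B1 (ENSG00000122566, chromosome 7, 26210771 to 26241149, minus strand) encodes the partner of A1 in the particle. Its TSS peak ran over the start of CBX3, a divergent neighbour, in all 5 lists, and over the start of NFE2L3 with shRNA5 and shRNA7. This peak was 24549 bp with the control shRNA, 37968 bp with shRNA5 and 38700 bp with shRNA7, and it was 16096 bp without doxycycline and 16243 bp with it. Of the gene span, 73.7%, 84.9% and 84.7% were covered in the hairpin lists and 51.9% and 57.4% in the doxycycline lists. The uncovered part was at the 3′ end, and in no list did a peak lie over the end of the gene. The density of the TSS peak was 129, 178 and 238 tags per kb in the hairpin lists. In the doxycycline lists it was 69.1 and 83.9.

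HNRNPC (ENSG00000092199, chromosome 14, 21677295 to 21737653, minus strand) encodes the C proteins, which bind uridine tracts in introns, and at 60359 bp is the longest of the 10 genes. It had the most peaks of the 10 genes with the control shRNA and without doxycycline. The control shRNA list had 8 peaks on it, shRNA5 5, shRNA7 0, no doxycycline 25 and doxycycline 6. The covered share was 62.3% with the control shRNA and 95.2% with shRNA5. With lists of equal length the shRNA5 covered length was 0.402-fold the control. That cut kept the most significant peaks and left out the 38925 bp shRNA5 peak over the start. The covered share was 88.4% without doxycycline and 99.3% with it. The doxycycline lists thus differed more in the number of body peaks, 21 against 4, than in the length covered, 54.2 against 60.9 kb. The longest peak was 10310 bp without doxycycline and 17876 bp with it. Fewer peaks on this gene therefore came with more of it covered.

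The empty shRNA7 entry of HNRNPC stood out. The nearest shRNA7 peaks were 38.7 kb upstream and 104 kb downstream of the gene, although the gene held 3131 tags under control shRNA peaks and 7368 under shRNA5 peaks. Of the 8 members with a peak in each of the other 4 lists, 1 had none with shRNA7, against 4.00% of all such genes. Significance scores of HNRNPC peaks differed widely. The score, −10 times the log10 of the p value from the peak caller, was 173 for the control shRNA TSS peak of 1400 tags and 168 for the 38925 bp shRNA5 peak of 4100 tags over the start. The 17758 bp shRNA5 body peak of 2075 tags had 3100. The TSS peak of 842 tags without doxycycline also had 3100. The absence of a peak therefore gives no measure of how much RNAPII was on HNRNPC.

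**Figure D2:**
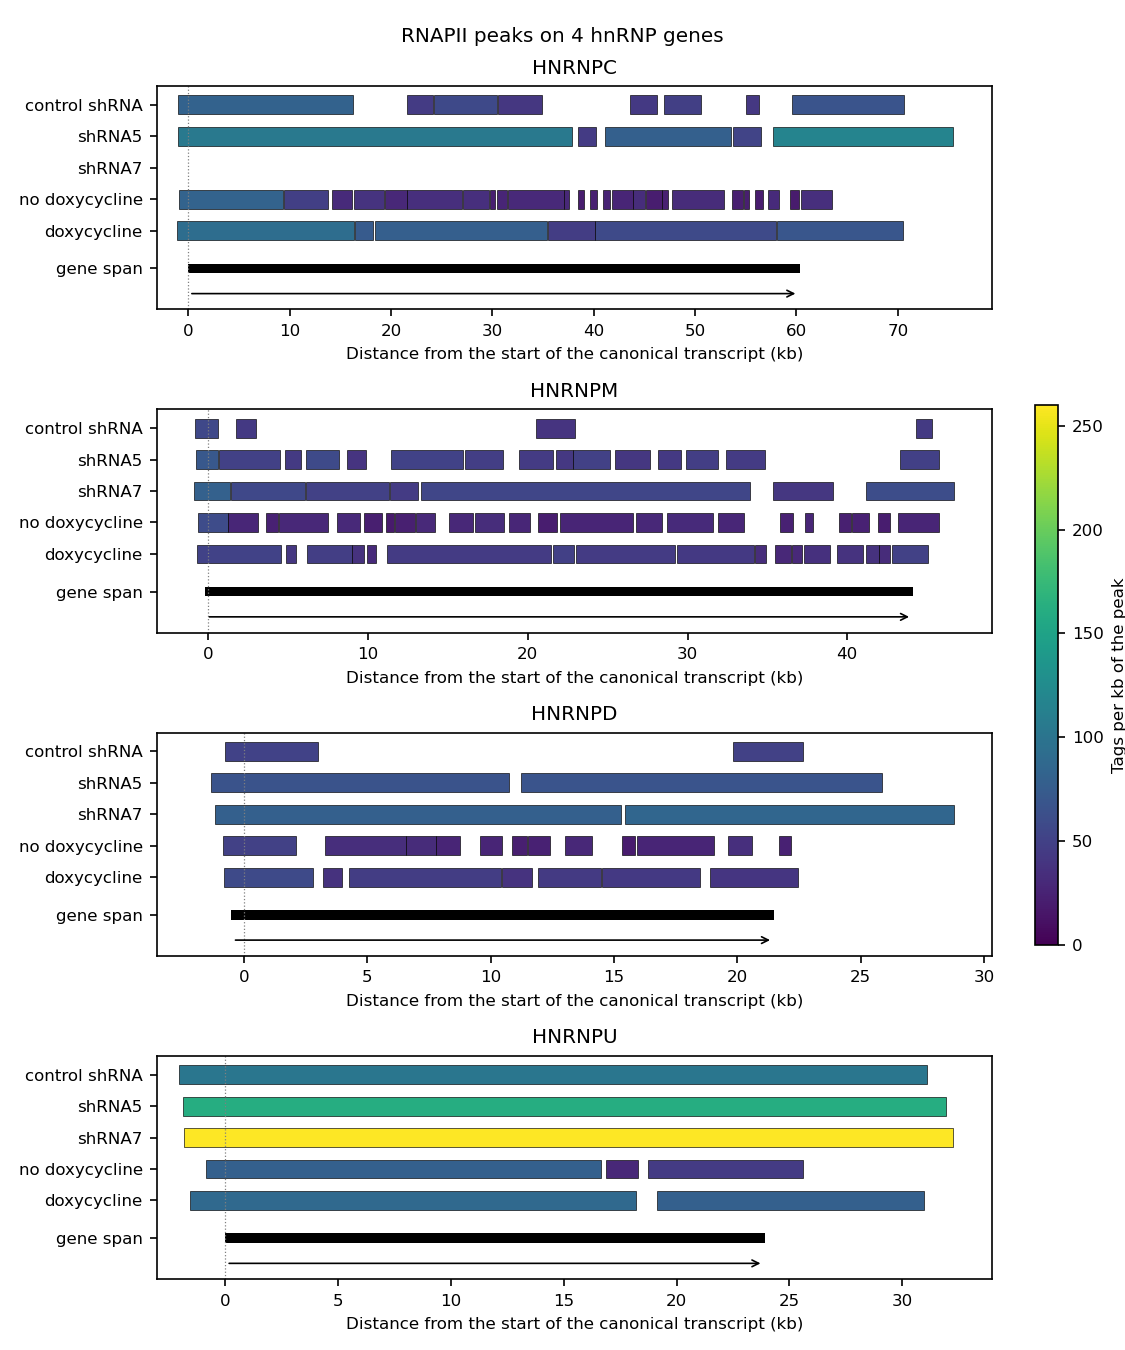
Peaks on HNRNPC, HNRNPM, HNRNPD and HNRNPU in each of the 5 lists, drawn by distance from the start of the canonical transcript (kb, horizontal axis, transcription to the right) and coloured by tags per kb, with the gene span in black. HNRNPC goes from 25 short peaks without doxycycline to 6 longer ones with it and has none with shRNA7, while HNRNPU lies under 1 peak in all 3 hairpin lists.

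HNRNPF and HNRNPH1 encode related proteins that bind runs of guanines. HNRNPF (ENSG00000169813, chromosome 10, 43881065 to 43904634, minus strand) had 5 peaks with the control shRNA, 4 with shRNA5 and 1 with shRNA7. The single shRNA7 peak was 31184 bp long and covered the gene, and its summit lay past the 3′ end. The covered share was 73.4%, 91.3% and 100% in the hairpin lists and 89.5% and 91.4% in the doxycycline lists. Tags per kb of its TSS peaks were 53.4, 66.7 and 117 with the 3 hairpins, and 54.5 and 79.6 without and with doxycycline. With doxycycline the TSS peaks held fewer tags than without it, 701 against 917, over a shorter length, 8809 against 16828 bp. The stretch under the 12275 bp TSS peak without doxycycline held several peaks with it, where the TSS peak was 4507 bp and the others were body peaks. Tags over all peaks on the gene were 1138 without doxycycline and 1522 with it. The higher TSS density therefore depended on how the peaks were divided.

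HNRNPH1 (ENSG00000169045, chromosome 5, 179041179 to 179061785, minus strand) was covered over 53.3% of its span with shRNA5, 59.7% with shRNA7, 53.9% without doxycycline and 51.4% with it. The uncovered part lay upstream of the canonical start, which is 11113 bp inside the annotated span. The start of the longest transcript had a peak only without doxycycline, of 525 bp and 11 tags. From the canonical start the peak ran past the gene end by 7.93 kb with shRNA5, 10.4 kb with shRNA7, 9.07 kb without doxycycline and 5.21 kb with it. The control shRNA list had no peak, and its nearest ones were 43.1 kb upstream and 1389 kb downstream.

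HNRNPK (ENSG00000165119, chromosome 9, 86582998 to 86595546, minus strand) encodes a protein that binds cytidine-rich RNA and DNA. The gene was covered over 99.9% or more of its span in every list. It lay under 1 peak of 17729 bp with the control shRNA, 21121 bp with shRNA5, 20814 bp with shRNA7 and 16935 bp with doxycycline, and under 2 peaks without doxycycline. The peak at the start also touched the TSS of RMI1, the divergent neighbour that encodes a subunit of the BLM helicase complex. The TSS density was 77.2, 110 and 151 tags per kb with the 3 hairpins. Without and with doxycycline it was 58.6 and 75.5.

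An intron of HNRNPK holds the microRNA gene MIR7-1 (chromosome 9, 86584663 to 86584772, minus strand), which lay under a peak in 5 of 5 lists. It is shown because it lies on the same strand as HNRNPK and within its transcribed span. The mature sequence, from RefSeq (GRCh38.p14), has its seed, bases 2 to 8, in capitals.
hsa-miR-7-5p: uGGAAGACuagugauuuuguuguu

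HNRNPL (ENSG00000104824, chromosome 19, 39327010 to 39342987, minus strand) encodes a splicing regulator that binds cytidine-adenosine repeats. It had no control shRNA peak, the nearest being 60.0 kb upstream and 101 kb downstream. With shRNA5 it lay under 1 peak of 23343 bp with 3360 tags, and with shRNA7 under 1 peak of 31162 bp with 6807 tags. Both also covered the start of ECH1, a gene of fatty acid oxidation downstream of HNRNPL. In every list with a peak on HNRNPL, its longest peak also touched the start of another protein-coding gene, ENSG00000268083. Tags of HNRNPL and that gene cannot be told apart there. In the doxycycline lists the covered share was 98.0% and 97.1%, and the density 87.0 and 104 tags per kb. Of the 9 members with a peak in each of the other 4 lists, HNRNPL and HNRNPH1 lacked one with the control shRNA, 2 of 9 against 53.2% of all such genes.

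HNRNPM (ENSG00000099783, chromosome 19, 8509651 to 8553998, plus strand), whose product binds guanosine and uridine rich RNA, had the sparsest signal. Its TSS peaks held 45.2, 51.9 and 57.2 tags per kb in the hairpin lists and 35.6 and 46.1 in the doxycycline lists, the lowest of the members in each list. The covered share was 10.1% with the control shRNA, 67.9% with shRNA5, 91.2% with shRNA7, 77.0% without doxycycline and 91.7% with it. Body peaks numbered 1, 12, 4, 18 and 12. Covered length was 5.86-fold the control with shRNA5 and 7.80-fold with shRNA7. These folds depended on which peaks were kept. With scores of at least 100 they were 17.4 and 32.5, with at least 10-fold enrichment 0.705 and 0.387, and in lists of equal length 0.716 and 1.26.

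HNRNPD (ENSG00000138668, chromosome 4, 83273651 to 83295656, minus strand) encodes AUF1, which binds adenosine and uridine rich elements and speeds decay of the RNA. With the control shRNA it had a TSS peak of 3779 bp and a body peak of 2876 bp at its 3′ end, with the middle uncovered. With shRNA5 the corresponding peaks were 12093 and 14607 bp, and with shRNA7 16482 and 13347 bp. The covered share was 23.7%, 97.8% and 99.3%. In the doxycycline lists it was 73.6% over 12 peaks and 93.7% over 7 peaks. The density of the TSS peak was 51.3, 66.1 and 78.8 tags per kb in the hairpin lists and 49.8 and 58.9 in the doxycycline lists, next to the lowest of the members in every list.

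HNRNPU (ENSG00000153187, chromosome 1, 245003940 to 245027862, minus strand) encodes the scaffold attachment factor SAF-A, which links RNA with chromatin. In each hairpin list 1 peak covered the whole gene and the start of COX20, with lengths of 33181, 33815 and 34077 bp for the control shRNA, shRNA5 and shRNA7. The length hardly differed, while the tags were 3396, 5451 and 8848. The density was 102, 161 and 260 tags per kb. The fold was 1.58 (95% interval 1.51 to 1.64) with shRNA5 and 2.54 (2.44 to 2.64) with shRNA7, the largest of the members in both comparisons. Tags of HNRNPU and COX20 cannot be told apart in these peaks. In the doxycycline lists the TSS peak was 17494 bp with 79.1 tags per kb and 19784 bp with 87.4 tags per kb. Body peaks covered the 3′ part of the gene, and the one with doxycycline also touched the start of COX20.

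Covered length over all 10 genes, with 500 bp added on each side, came to 137 kb with the control shRNA, 236 kb with shRNA5 and 191 kb with shRNA7. Genes without a peak entered these sums as 0 kb, HNRNPH1 and HNRNPL with the control shRNA and HNRNPC with shRNA7. HNRNPC supplied 58.5 kb of the shRNA5 sum, and without this gene the shRNA7 sum would be the larger. A gene with a peak in only 1 of the lists compared was also counted as longer or shorter. With shRNA5, 4 of 10 members (HNRNPD, HNRNPH1, HNRNPL and HNRNPM) were counted as at least 2-fold longer, against 82.3% of all genes. HNRNPH1 and HNRNPL had no control shRNA peak, so no fold could be formed for them. At least 2-fold shorter were 0 members (0.307%). With peaks of at least 10-fold enrichment the count of longer genes was 2, as HNRNPD was then 1.80-fold and HNRNPM 0.705-fold the control. In lists of equal length the count was 3. With shRNA7 covered length was counted as longer for 4 of 10, the same genes (89.5% of all genes), and shorter for 1, HNRNPC (1.68%). The count of longer genes was 3 at 10-fold enrichment and 3 in lists of equal length. The other members were already covered over at least 62.3% of their span with the control shRNA, which leaves no room for a 2-fold gain. Of all protein-coding genes, 4451 had a control shRNA peak, while 10417 were counted with shRNA5 and 12171 with shRNA7. The background thus includes many genes counted as longer only because the control list held no peak on them. Why the member count lay below it was not tested.

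Covered length in the doxycycline arm came to 219 kb without the drug and 237 kb with it. It was 2-fold longer in 0 of 10 (4.06% of all genes) and 2-fold shorter in 0 of 10 (35.2%). All 10 members had peaks in both lists. Of all protein-coding genes, 12913 were counted, while 12699 had a peak without doxycycline and 10596 with it. The 35.2% thus includes many genes counted as shorter only because the doxycycline list held no peak on them. The covered share was higher with doxycycline in 6 genes and lower in 3. Body peaks numbered 56 without doxycycline and 30 with it. They were fewer in 5 genes and more in 2, HNRNPA2B1 and HNRNPF. The median body peak was 1173 bp without doxycycline and 1993 bp with it. HNRNPC, with 21 body peaks without doxycycline and 4 with it, made up most of the difference, and the whole lists held 47060 and 33900 peaks.

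**Figure D3:**
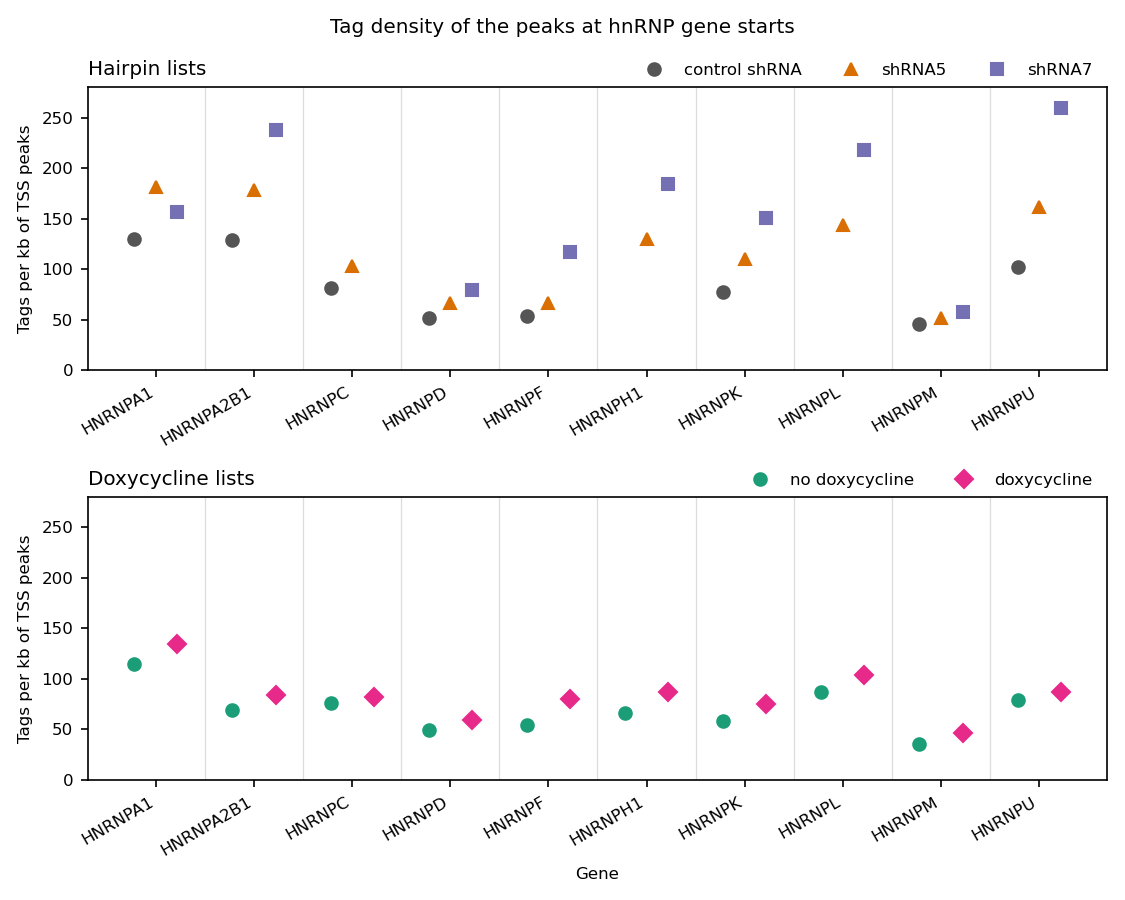
Tags per kb of the TSS peaks (vertical axis) of the 10 genes (horizontal axis), with 1 point per library and no point where a list has no TSS peak. HNRNPU with shRNA7 is the highest at 260 and HNRNPM without doxycycline the lowest at 35.6.

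Tag density in TSS peaks was higher with shRNA5 in 8 of 8 members with a TSS peak in both lists. The median fold was 1.34, from 1.15 in HNRNPM to 1.58 in HNRNPU, and the median of all genes was 1.33. It reached 1.5-fold in 1 of 8 members (20.8% of all genes). With shRNA7 the density was higher in 7 of 7, with a median fold of 1.84, from 1.21 in HNRNPA1 to 2.54 in HNRNPU, beside 1.55 over all genes. It reached 1.5-fold in 5 of 7 (55.7%), namely HNRNPA2B1, HNRNPD, HNRNPF, HNRNPK and HNRNPU. With doxycycline the density was higher in 10 of 10, with a median fold of 1.20 beside 1.14 over all genes, and it reached 1.5-fold in 0 of 10 (11.7%). The 95% intervals, exact binomial intervals that cover counting error only and not where peaks begin and end, lay above 1 in 7, 7 and 8 members. HNRNPM with shRNA5 and HNRNPC and HNRNPD with doxycycline were the exceptions. Many of these TSS peaks ran over the gene body and the starts of neighbours, so the densities are not those of the promoter alone. Their median length was 10595, 11966.5 and 22694 bp in the hairpin lists, where all peaks had medians of 1905, 1834 and 2024 bp. In the doxycycline lists it was 3751.5 and 4952.5 bp, beside 622 and 689 bp. The densities divide by peak lengths that were called separately in each list. The TSS peaks were longer in 8 of 8 members with shRNA5, 7 of 7 with shRNA7 and 5 of 10 with doxycycline, and their tags were higher in 8, 7 and 9. On HNRNPA1, the lowest fold with shRNA7, the tags were 1478 with the control shRNA and 3583 with shRNA7, over 11389 and 22904 bp. The part of peak length and of the total of tags in each list in these folds was not tested.

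**Figure D4:**
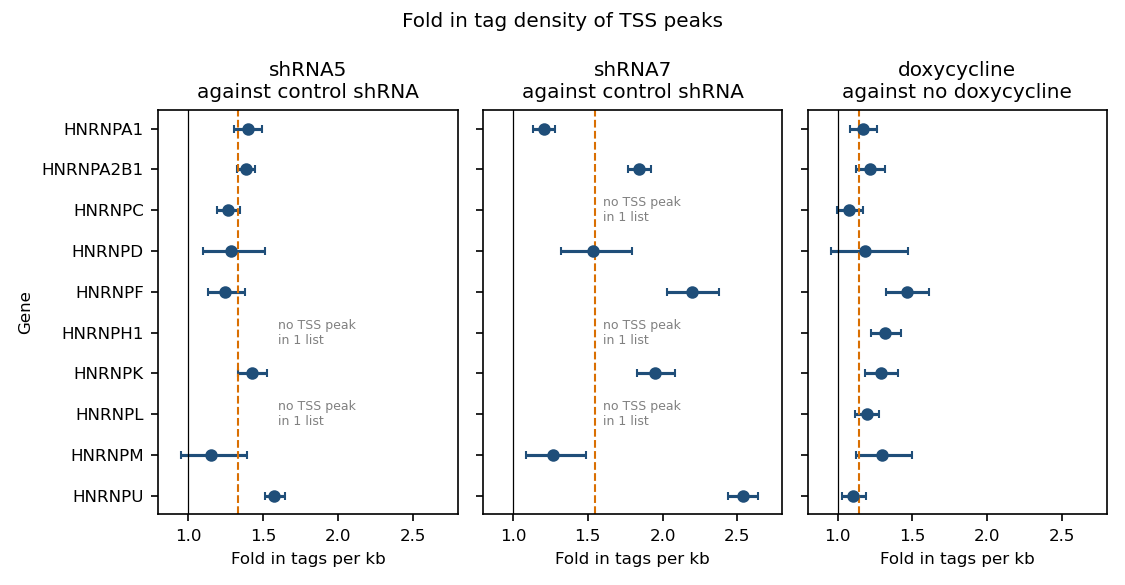
Fold in tags per kb of TSS peaks (horizontal axis, linear, with 95% exact binomial intervals for counting error) for each gene in the 3 comparisons, where the dashed line is the median of all genes and the solid line is 1. With shRNA7 the intervals of HNRNPU, HNRNPF, HNRNPK and HNRNPA2B1 lie to the right of the dashed line, those of HNRNPA1 and HNRNPM lie to its left, and that of HNRNPD spans it.

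Peaks also ran past the ends of the genes. Among the 6 members with a peak over the gene end in both lists, the peak reached at least 1 kb farther with shRNA5 in 3 (HNRNPC, HNRNPD and HNRNPK; 56.5% of such genes) and less far in 0 (0.446%). With shRNA7 it reached farther in 5 of 5 (83.0%) and less far in 0 (0.00%). HNRNPU was among these, with a gain of 1.14 kb. Its peaks in both lists touched the start of COX20, so this gain cannot be assigned to HNRNPU alone. HNRNPD, for example, was followed by 1.18 kb of peak with the control shRNA, 4.36 kb with shRNA5 and 7.30 kb with shRNA7. With doxycycline the peak reached farther in 2 of 7, HNRNPF and HNRNPU (11.3%), and less far in 2 of 7, HNRNPH1 and HNRNPL (13.7%). HNRNPU went from 1.70 to 7.07 kb, but its peak with doxycycline also touched the start of COX20. The peak without doxycycline did not. This longer reach therefore cannot be assigned to HNRNPU alone. On HNRNPC a peak ran 10.2 kb past the end with doxycycline, while without it no peak lay over the gene end and one began just past it.

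Summits of TSS peaks lay within 200 bp of an annotated start in 9 of 11 peaks with the control shRNA, 8 of 14 with shRNA5, 6 of 11 with shRNA7, 14 of 20 without doxycycline and 12 of 18 with it. With shRNA7 the summits of the HNRNPF, HNRNPK, HNRNPL and HNRNPU peaks and of 1 of the HNRNPM peaks lay past the 3′ end of the gene. For HNRNPU it was 29136 bp from the canonical start with shRNA7, 29104 bp with shRNA5 and 11629 bp with the control shRNA. In the doxycycline lists it was 108 bp and 67 bp. The HNRNPU peaks of the hairpin lists also touched the start of COX20, and the HNRNPL peak with shRNA7 that of ECH1. Summits past the gene end therefore cannot be assigned to HNRNPU or HNRNPL alone. Summits of body peaks fell mostly in introns, in 49 of 56 peaks without doxycycline and 25 of 30 with it. Few genes supplied most of these peaks. HNRNPC, HNRNPM and HNRNPD held 21, 18 and 10 of the 56, and HNRNPC held 7 of 11 with the control shRNA. Summit positions and AT content were not computed over all genes, so these values have no background and describe these peaks only. The bases within 1 kb of the summit had a median AT content of 60.4% at body peaks and 41.3% at TSS peaks with the control shRNA. The other lists had the same order, with 56.5% and 43.3% for shRNA5, 56.6% and 44.3% for shRNA7, 58.9% and 41.4% without doxycycline, and 57.2% and 39.4% with it.

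The other 18 genes of the hnRNP family and 12 genes of SR proteins, splicing factors that often act against hnRNPs, were looked at in the same way. TSS peaks were present on 13, 18 and 15 of 18 family genes in the hairpin lists and on 18 and 18 in the doxycycline lists. For the SR genes they were present on 8, 11, 11, 11 and 11 of 12. Medians of the covered share were taken over all genes of a set, with or without a peak. They were 47.2%, 98.1%, 99.9%, 72.3% and 80.1% for the family genes. For the SR genes they were 25.1%, 92.4%, 100%, 70.3% and 73.0%, and for all 10 members 67.8%, 96.5%, 99.7%, 89.0% and 95.0%. Among genes in the length range with a TSS peak, at least 80% was covered in 5 of 10, 10 of 14, 10 of 11, 6 of 14 and 7 of 14 family genes. For SR genes it was 3 of 7, 4 of 8, 5 of 8, 4 of 8 and 4 of 8. No family gene lacked a peak in all lists. Among the most covered were HNRNPA3, at 100% in all 3 hairpin lists, and PTBP1 and HNRNPAB, each at 100% in both doxycycline lists. PTBP1, which encodes the polypyrimidine tract binding protein, was covered over 19.4% with the control shRNA, 99.8% with shRNA5 and 100% with shRNA7. High coverage was thus not particular to the 10 genes, and no test of a difference between the lists of genes was made.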

How the data were processed

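RNAPII ChIP-seq reads from the 5 RNAPII libraries were processed by the authors with CASAVA 1.8, Bowtie 0.12.7 and MACS 1.4.2 on hg19, with IgG libraries as background. Per the study's methods, Bowtie ran with its best option and reads in regions blacklisted for mappability were removed. How many matches per read were allowed is not given in the sources used here, and hnRNP genes such as HNRNPA1 have processed pseudogenes. The deposited lists give, per peak, the tag count, a score (−10 log10 of the p value), the fold enrichment over background as a ratio, and a false discovery rate in percent. Tag counts are not normalised. The lists give no library totals, and the study describes similar read numbers for the samples it compared.

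Peaks were joined to GENCODE release 44 mapped to GRCh37, newer than the authors' annotation, with gene spans widened by 500 bp. Covered shares are of the unwidened span. A TSS peak touches the 500 bp on either side of the start of any protein-coding transcript, including partial ones. All 5 lists lay within the chromosome lengths of GRCh37. With 1 library per group nothing was tested, and percentages of all genes stand as background. Genes of the same length range are those no shorter than HNRNPA1 and no longer than HNRNPC. Intervals of tag folds are exact binomial. Python 3.11.15, pandas 2.3.3 and SciPy 1.17.1 were used, and the counting was tested on simulated data. Members and gene lists were chosen with earlier results of these data known. All 10 members are named, family genes where they had no peak in any list or were the 2 most covered of an arm (1 of these is not reported here), and other genes where a member's peak touched their TSS, as well as the line's markers. The reach past gene ends, the 80% share, the lists lacking a peak and the score by tags were added after the values were seen.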

Additional observations from a re-analysis of the deposited data

Results flagged for a closer look

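The covered length of HNRNPC went in opposite directions with the 2 hairpins. It was 38.6 kb with the control shRNA, 58.5 kb with shRNA5 and 0 kb with shRNA7, with 1 library each, and the difference was not tested. The shRNA5 direction depended on which peaks were kept. With the lists of the arm limited to an equal number of top-scoring peaks, the covered length was 0.402-fold the control. This cut left out the 38925 bp shRNA5 peak over the start, which held 4100 tags but scored 168. It therefore gives no measure of how stable the direction was.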

How the results depend on the processing

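Of 108 main values recomputed under other settings, 95 stayed within 1.5-fold. The other 13 were mostly counts of body peaks. With peaks of score 100 or more the control shRNA count was 6. With at least 10-fold enrichment the counts were 7 (control shRNA), 5 (shRNA5), 1 (shRNA7) and 19 (doxycycline), and 2 members instead of 4 were covered at least 2-fold longer with shRNA5. Joining peaks under 1 kb apart, which by construction lowers counts, gave 7, 4 and 2 for the control shRNA, shRNA5 and shRNA7, and 6 and 2 for cells without and with doxycycline. With lists of equal length the counts were 6 with shRNA5 and 2 with shRNA7. Of 150 folds in covered length of single genes, 141 stayed within 1.5-fold of the value reported. The direction turned in 10. HNRNPM was 0.705 with shRNA5 and 0.387 with shRNA7 at 10-fold enrichment, and 0.716 with shRNA5 in lists of equal length, where HNRNPC with shRNA5 was 0.402. HNRNPD with doxycycline was 0.816 at 10-fold enrichment. The other 5 were doxycycline folds that stayed between 0.863 and 1.05. The HNRNPC value came from a cut by score that left out its 38925 bp shRNA5 peak, which scored 168. For the other folds the cause was not tested. With 1 library per group no replicate could be left out. No paired analysis was possible because there were no replicates to pair. Precision is limited by the tags in each peak, and a peak that is not called sets no upper limit on RNAPII.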

Other observations

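Some long peaks of one hairpin list were missing from another. Of 79 shRNA5 peaks of at least 20 kb, 34.2% met no shRNA7 peak, compared with 15.0% of 21392 shRNA5 peaks under 5 kb. Other pairs did not all show this order. Of control shRNA peaks, 0 of 7 of at least 20 kb, 23.2% of 95 from 10 to 20 kb and 10.3% of 4748 under 5 kb met no shRNA7 peak. In the smaller control list, 10.1% of the shRNA5 and 9.30% of the shRNA7 peaks of at least 20 kb were missing, against 86.2% and 93.6% of those under 5 kb. In the doxycycline arm 0 of 8 such peaks without doxycycline and 0 of 13 with it met no peak of the other list. Control shRNA peaks of 1000 to 3000 tags had scores under 200 in 26.7% of 60 cases, shRNA5 peaks of that size in 7.90% of 367 and shRNA7 peaks in 11.7% of 889, while in the doxycycline arm it was 0 of 62 and 0 of 77. Among genes chosen after their values were seen, SYNCRIP and RBMX of the hnRNP family had no peak with shRNA7 but one in each of the other 4 lists. PCBP2 and SRSF1 had none with the control shRNA, although other lists held peaks of up to 46818 and 33639 bp on them. The cause was not tested.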
